A study of Mus musculus with 16 samples.

Results

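The synaptic vesicle and release machinery was followed through 32 genes, chosen by name for their roles in filling, docking, priming, fusing and recovering synaptic vesicles. The 32 genes were matched by symbol among the 55385 genes of the count table, and all 32 were among the 16684 genes with enough counts for a test. The genes were not chosen on their measured values, but earlier results from these libraries were known when the list was drawn up. Polyadenylated RNA of the hippocampus of 5-month-old mice was sequenced in 16 libraries, 4 for each of 4 genotypes. The design asks what a duplicated segment of chromosome 16 changes, what familial Alzheimer transgenes change, and whether either change depends on the other.

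The Dp16 group (4 libraries, 2 female and 2 male) carried the duplicated segment, as a model of Down syndrome. The 5xFAD group (4 libraries, 2 female and 2 male) carried human transgenes with familial Alzheimer mutations, driven by the neuronal Thy1 promoter. The 5xFAD-Dp16 group (4 libraries, all male) was the cross and carried both the duplication and the transgenes. The wild-type group (4 libraries, 2 female and 2 male) was C57BL/6J. All libraries came from mice 5 months old, and the labels name no treatment. Whether the 4 libraries of a genotype came from 4 different mice is not written in the labels. The 2 sexes mean at least 2 mice each in Dp16, 5xFAD and wild-type. The p-values rest on the spread among libraries, which may in part be technical.

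At a synapse, transporters load transmitter into vesicles, scaffold proteins of the active zone hold the vesicles close to calcium channels, and priming factors bring the SNARE proteins of vesicle and plasma membrane together. Calcium entering the terminal binds synaptotagmins, the SNARE complex closes and the vesicle fuses. Dynamin and its partners then recover the membrane. The hippocampus is dominated by glutamatergic pyramidal and granule cells, and several of these gene families hold one member favoured there and another favoured by fast-firing neurons, interneurons or deeper brain regions.

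Library totals ranged from 15.8 to 25 M (mega) counts. Levels are given as CPM, counts scaled to a common library size after trimmed mean of M values (TMM) normalization, and per-library values follow replicates 1 to 4. The labels held up in the genes they name. App, which lies in the duplicated segment, averaged 3139 ± 95.8 CPM in Dp16 and 2961 ± 269 CPM in 5xFAD-Dp16, against 1827 ± 122 CPM in 5xFAD and 2033 ± 236 CPM in wild-type (SD, n = 4 each). Thy1, whose promoter drives the transgenes, averaged 2133 ± 363 CPM in 5xFAD and 2368 ± 536 CPM in 5xFAD-Dp16, against 858 ± 65.2 CPM in Dp16 and 814 ± 70.2 CPM in wild-type. Hippocampal markers were present in every library: the 5 CA1, 4 CA3 and 6 dentate gyrus genes were all tested, with none at 0 in any library.

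Before any comparison of genotypes, 4 libraries have to be named, because they stood apart in RNA of neighbouring brain regions. A neighbour-tissue score was taken as the mean log2 CPM of 12 thalamus and 11 midbrain and hypothalamus marker genes, centred over the libraries. The score reached 1.97 and 1.62 in 5xFAD replicates 2 and 4, 1.41 in 5xFAD-Dp16 replicate 3 and 0.941 in wild-type replicate 4, and lay between -0.740 and -0.0742 in the other 12. Summed midbrain and hypothalamus markers held 42.5 to 367 CPM in these 4 libraries and 8.0 to 13.5 CPM in the other 12. Summed thalamus markers overlapped, at 230.5 to 584 CPM in the 4 and 165 to 255 CPM in the other 12. In wild-type replicate 4 the thalamus markers alone, averaged on the same log2 scale, stood at 0.196, against 0.208 in wild-type replicate 2, which was not among the 4. Its Prkcd, one of these markers, was at 9.74 CPM, the lowest of all 16 libraries. The 4 libraries were not alike in every marker. Slc6a3, a midbrain marker, was at 143 CPM in 5xFAD replicate 2 but at 0.197 CPM in 5xFAD replicate 4, within the range of the other 12. Prkcd was at 104 CPM in 5xFAD replicate 4 but at 16.9 CPM in 5xFAD replicate 2, below all of the other 12. Tcf7l2, Irx3 and Tnnt1 were higher in each of the 4 than in any of the other 12. No Dp16 library was among the 4. Of the 22 midbrain and hypothalamus markers 11 passed the filter on low counts, and 12 of 13 thalamus markers did. Foxa2 and Nkx2-4, of the midbrain floor and hypothalamus, were at 0 in 13 of 16 libraries and did not pass. Avp, Hcrt, Otp, Oxt, Pmch and Sim1, of the hypothalamus, did not pass either, so the score left them out. The summed CPM covered all 22 and all 13 genes of these lists, and so other gene sets than the score. Among the 11, Barhl1 was at 0 in 9 libraries and Sox14 in 12, so Sox14 passed on its few other libraries alone. The gap in score can thus in part come from the filter, and it is a description, not a test. Summed choroid plexus markers, of the tissue that secretes cerebrospinal fluid, varied from 55.3 to 6628 CPM across libraries of all genotypes.

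The promoters of 4 members are shown because the results on the neighbour-tissue score turn on these genes: Vamp1 and Syt2 moved upward with it, Slc17a7 and Syn1 downward. Each runs from 250 bases before to 50 bases after the start of the gene in RefSeq (build GRCm38.p6), and 26 of the 32 members had an entry. Capitals mark matches on either strand to 4 motifs: the GC box GGGCGG, the cyclic AMP response element TGACGTCA, the TATA box TATAAA and the left arm of the RE1 element, TTCAGCACC, which the neuronal repressor REST reads.
Vamp1 (chr6:125215331-125215630, plus strand): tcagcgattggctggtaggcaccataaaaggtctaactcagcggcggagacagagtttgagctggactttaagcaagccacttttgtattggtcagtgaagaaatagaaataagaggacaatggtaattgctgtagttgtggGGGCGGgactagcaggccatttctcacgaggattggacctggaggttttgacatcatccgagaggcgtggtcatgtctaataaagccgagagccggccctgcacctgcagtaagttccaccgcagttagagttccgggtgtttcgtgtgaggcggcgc
Syt2 (chr1:134646362-134646661, plus strand): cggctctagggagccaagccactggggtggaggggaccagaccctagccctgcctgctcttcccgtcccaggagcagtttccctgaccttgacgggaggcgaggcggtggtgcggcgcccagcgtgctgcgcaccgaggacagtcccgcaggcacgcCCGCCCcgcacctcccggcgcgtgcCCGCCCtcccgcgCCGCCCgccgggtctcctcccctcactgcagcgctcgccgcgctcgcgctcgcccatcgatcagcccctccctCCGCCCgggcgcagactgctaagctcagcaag
Slc17a7 (chr7:45163671-45163970, plus strand): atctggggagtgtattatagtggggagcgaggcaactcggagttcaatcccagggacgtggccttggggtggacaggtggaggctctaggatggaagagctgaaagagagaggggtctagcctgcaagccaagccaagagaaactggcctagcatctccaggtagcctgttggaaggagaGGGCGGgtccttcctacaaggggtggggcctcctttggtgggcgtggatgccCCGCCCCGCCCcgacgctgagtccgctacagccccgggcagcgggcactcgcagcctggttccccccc
Syn1 (chrX:20920869-20921168, minus strand): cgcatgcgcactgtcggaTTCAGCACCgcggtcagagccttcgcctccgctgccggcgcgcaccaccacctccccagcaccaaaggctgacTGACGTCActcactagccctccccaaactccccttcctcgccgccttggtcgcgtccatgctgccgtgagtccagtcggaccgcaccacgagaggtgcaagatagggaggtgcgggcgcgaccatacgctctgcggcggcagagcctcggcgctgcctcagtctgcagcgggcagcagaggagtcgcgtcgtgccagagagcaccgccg

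The capitals in Vamp1, Syt2 and Slc17a7 are GC boxes, 1, 4 and 3 of them, and in Slc17a7 a pair of them overlaps by 1 base. Syt2 had 2 starts listed, of which the one nearer the annotated gene start is shown. The Syn1 window held 1 cyclic AMP response element and 1 left arm of the RE1 element, and no GC box. Over 32851 such windows of all genes, 35.7% held a GC box, 1.79% the cyclic AMP response element, 13.6% the TATA box and 0.371% the RE1 arm. The 26 matched members had 35 windows, of which 20 held a GC box, 1 the cyclic AMP response element, 2 the TATA box and 2 the RE1 arm. Counted by gene, 19 of 26 had a GC box, 1 (Syn1) the cyclic AMP response element, 1 (Sv2b) the TATA box and 2 (Syn1 and Unc13a) the RE1 arm. Among the promoters shown, those of Vamp1 and Syt2, which moved upward, and of Slc17a7, which moved downward, held GC boxes. A match is a description of these letters and does not show a bound site.

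Per gene length, in the deposited RPKM (reads scaled to gene length and library size), the members spanned a wide range. Snap25, the plasma membrane SNARE that was highest of all, averaged 1112 ± 135 RPKM (SD over 16 libraries), and Syp, the vesicle protein synaptophysin, 611 ± 38.5 RPKM. Vamp2, the main vesicle SNARE of forebrain, followed at 479 ± 51.9 RPKM and Slc17a7, the vesicular glutamate transporter VGLUT1, at 462 ± 113 RPKM. Snap25 was above Syp, and Syp above Vamp2, in 16 of 16 libraries, while Vamp2 exceeded Slc17a7 in 9 of 16 only. Rab3a, Cplx2, Sncb and Dnm1 lay close together between 332 and 362 RPKM and were not separated: Rab3a exceeded Cplx2 in 9 of 16 libraries, Cplx2 exceeded Sncb in 8 and Sncb exceeded Dnm1 in 7. At the low end stood Syt2 (7.57 ± 4.92 RPKM), Sv2c (4.63 ± 1.60), Syn3 (1.82 ± 0.181) and Unc13b (1.75 ± 0.216). Syn3 and Unc13b were not separated, as Syn3 was the higher of the pair in 7 of 16 libraries. Of the members outside this low end, Vamp1 had the widest relative spread, 36.0 ± 20.4 RPKM with a range of 19.4 to 87.6.

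**Figure D1:**
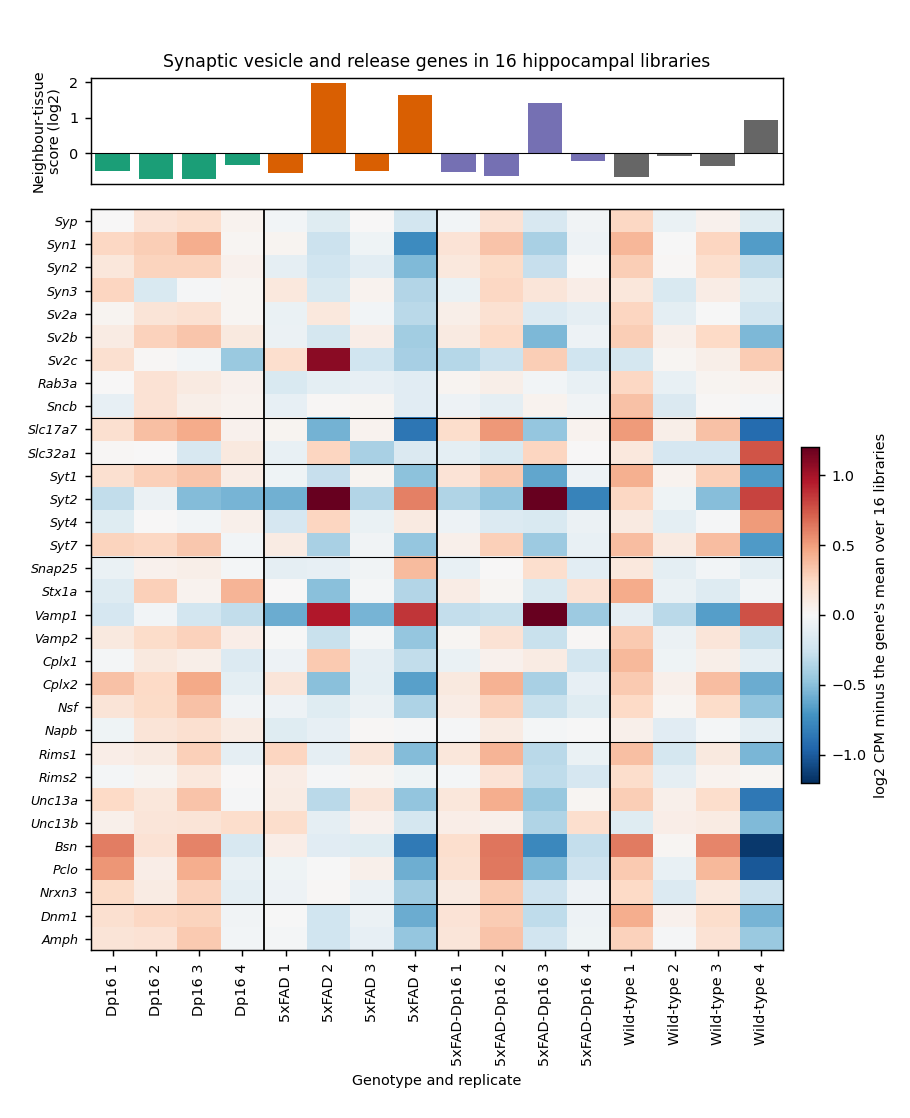
Heat map of the 32 members (lines, grouped by role in the order vesicle proteins, transporters, calcium sensors, SNARE and complexin genes, active zone, endocytosis) in 16 libraries (columns, by genotype and replicate), coloured by log2 CPM minus the gene's mean over all libraries, with bars of the neighbour-tissue score (log2) above and values past the ends of the colour scale drawn in its end colours. The 4 libraries with scores of 0.941 to 1.97 share a pattern across genotypes, with Vamp1 and Syt2 high and most other members low.

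No member of the release machinery differed between genotypes past the threshold of adjusted p below 0.05, in any of the 5 comparisons of genotypes. In Dp16 against wild-type 0 of 32 members were called in edgeR's quasi-likelihood test, where 0.0839% of all tested genes were. In 5xFAD against wild-type 0 of 32 were called, against 0.971% of all genes. In 5xFAD-Dp16 against wild-type the count was 0 of 32, against 1.01% of all genes. In 5xFAD-Dp16 against 5xFAD it was 0 of 32, against 0.0539%, and in 5xFAD-Dp16 against Dp16 0 of 32, against 0.845%. At such background shares, 0 of 32 says nothing particular about these genes. DESeq2 also called 0 members in each of the 5. In Dp16, 5xFAD and 5xFAD-Dp16 against wild-type it called 33, 266 and 256 of all 16684 genes higher and 5, 26 and 11 lower. In 5xFAD-Dp16 against 5xFAD it called 24 higher and 3 lower, and in 5xFAD-Dp16 against Dp16 250 and 19. At an unadjusted p below 0.05, edgeR had 0, 2, 0, 0 and 0 members in the 5 comparisons in this order, the 2 being Rab3a and Syn2 in 5xFAD. Over all genes 3.31%, 8.85%, 6.38%, 3.28% and 8.57% had such a p. With 32 members and comparisons that share libraries, counts this near to these shares say nothing particular about the members. In bulk tissue, fewer cells of a type and less RNA per cell cannot be told apart.

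The 95% interval of the fitted change lay within 2-fold in either direction for 30 of 32 members in Dp16 against wild-type, 29 in 5xFAD against wild-type and 30 in 5xFAD-Dp16 against wild-type. Within 1.5-fold there were 22, 18 and 24 members. The intervals of Vamp1 and Syt2 were the widest: for Syt2 the fitted change in Dp16 against wild-type ran from log2 -1.61 to 0.59, and for Vamp1 in 5xFAD-Dp16 against wild-type from -0.67 to 1.52. For the members outside these counts, a change of 1.5-fold in at least 1 direction lay inside the interval.

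The signs of the fitted changes ran in different directions by genotype. In Dp16 against wild-type 24 of 32 members had a positive sign and the median was log2 0.12, against -0.013 over all tested genes. In 5xFAD against wild-type 6 of 32 were positive and the median was -0.12, against 0.020 over all genes. In 5xFAD-Dp16 against wild-type 6 of 32 were positive and the median was -0.096, against -0.0043 over all genes. These 3 comparisons share the wild-type libraries, and 46.9%, 53.5% and 48.9% of all genes were positive in them. The third turned on 1 library: without wild-type replicate 1, 17 of 32 members were positive and the median was 0.014. With no sex term 13 of 32 were positive in it and the median was -0.035. In 5xFAD-Dp16 against 5xFAD 23 of 32 were positive (median 0.065, against -0.0028), and in 5xFAD-Dp16 against Dp16 5 of 32 were (median -0.17, against 0.020). Of the 4 libraries high in neighbour-tissue markers, 0 were Dp16, 2 were 5xFAD, 1 was 5xFAD-Dp16 and 1 was wild-type. With the score as a covariate the medians were 0.030 for Dp16, -0.054 for 5xFAD and -0.059 for 5xFAD-Dp16 against wild-type, and without the 4 libraries they were 0.032, -0.16 and -0.095. In 5xFAD-Dp16 against 5xFAD the covariate left 16 of 32 positive, with a median of -0.0042. The part of neighbouring tissue in these medians was not tested beyond these values. Markers of microglia, the immune cells of the brain, also moved with the transgenes: the 12 genes, all tested and none at 0 in any library, summed to 509 to 540.4 CPM in Dp16, 909 to 1435 CPM in 5xFAD, 855 to 1053 CPM in 5xFAD-Dp16 and 512 to 578 CPM in wild-type. The part of microglial RNA in the medians was not tested. In males alone the median was -0.40 in 5xFAD against wild-type, where 5xFAD replicate 4 was 1 of the 2 male 5xFAD libraries. For Dp16 against wild-type it was 0.0039 in males, with 17 of 32 positive, and for 5xFAD-Dp16 against wild-type -0.18, with 4 of 32 positive.

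**Figure D2:**
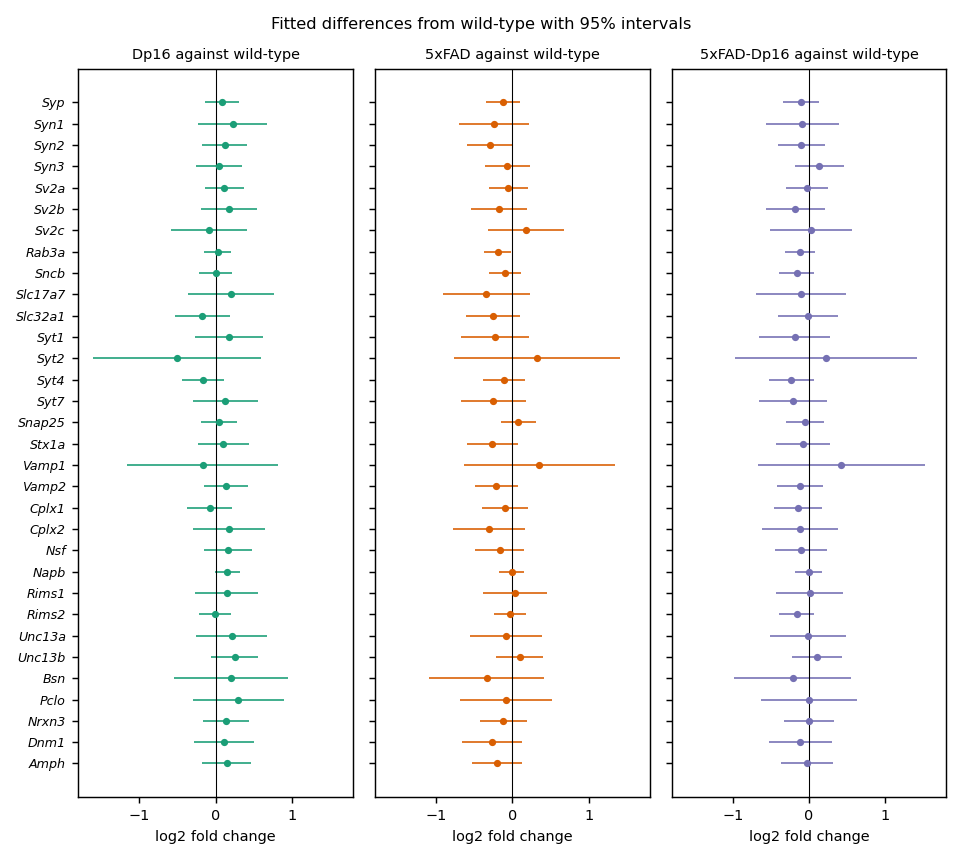
Fitted log2 fold changes of the 32 members (vertical axis, in the order of roles) against wild-type in Dp16, 5xFAD and 5xFAD-Dp16, with points for the estimates and lines for 95% intervals from the edgeR fit. In Dp16 24 of 32 points lie right of 0, and in 5xFAD and 5xFAD-Dp16 6 of 32 do, and Syt2 and Vamp1 have the widest intervals.

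Among proteins of the vesicle membrane and its surface, 0 of 9 members were called in any comparison of genotypes. Rab3a, the small GTPase that tethers vesicles at the active zone, had 647, 729, 697 and 669.7 CPM in Dp16, 569, 597, 602 and 588 in 5xFAD, 659.6, 679.7, 631 and 608 in 5xFAD-Dp16 and 768, 607, 661 and 665 in wild-type. All 4 5xFAD libraries were below all 4 wild-type libraries and below all 4 5xFAD-Dp16 libraries, though the nearest 5xFAD and wild-type values were 602 and 607 CPM. The fitted change was log2 -0.19 ± 0.0845 SE, adjusted p = 0.525 in 5xFAD against wild-type and log2 0.077 ± 0.0916 SE, adjusted p = 1.0 in 5xFAD-Dp16 against 5xFAD. Rab3a was 1 of 32 members whose ranges did not overlap in 5xFAD against wild-type, where 4.53% of all genes had none, and 1 of 32 in 5xFAD-Dp16 against 5xFAD, where 2.61% had none. In Dp16 and in 5xFAD-Dp16 against wild-type, and in 5xFAD-Dp16 against Dp16, the count was 0 of 32, against 2.92%, 4.38% and 5.76% of all genes.

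Syn2, a synapsin that clusters vesicles in the reserve pool, had 767, 840.4, 844 and 726 CPM in Dp16, 650.2, 592, 641 and 486 in 5xFAD, 764, 823, 577 and 698 in 5xFAD-Dp16 and 857, 708, 805 and 570.4 in wild-type. The 5xFAD values lay low but overlapped those of wild-type, whose replicate 4 was at 570.4 CPM (log2 -0.30 ± 0.138 SE, adjusted p = 0.553). Sv2b, a vesicle glycoprotein of glutamatergic terminals, had 442, 499, 519 and 448 CPM in Dp16, 393, 358, 435 and 309 in 5xFAD, 445, 488, 284 and 397 in 5xFAD-Dp16 and 505, 432, 488 and 285 in wild-type. It had the smallest p of the members in 5xFAD-Dp16 against Dp16 (log2 -0.35 ± 0.185 SE, adjusted p = 0.645), where 5xFAD-Dp16 replicate 3, at 284 CPM, was the lowest of its group and replicate 2, at 488 CPM, lay among the Dp16 values. Sv2c, a vesicle glycoprotein known from basal ganglia and midbrain, had 47, 41.5, 40.1 and 30.1 CPM in Dp16, 47.2, 86.9, 34.8 and 31.1 in 5xFAD, 32.3, 34.4, 50.4 and 34.9 in 5xFAD-Dp16 and 35.5, 41.7, 43 and 50.7 in wild-type. Its highest value was that of 5xFAD replicate 2, and the groups overlapped otherwise (log2 0.18 ± 0.236 SE, adjusted p = 0.838 in 5xFAD against wild-type).

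Syn3, the synapsin of lowest level here, had 11.7, 8.67, 9.74 and 10 CPM in Dp16, 10.7, 8.69, 10.1 and 7.74 in 5xFAD, 9.34, 11.7, 10.9 and 10.4 in 5xFAD-Dp16 and 10.9, 8.69, 10.5 and 8.92 in wild-type. It had a positive sign in 5xFAD-Dp16 against both wild-type (log2 0.13 ± 0.149 SE, adjusted p = 1.0) and 5xFAD (log2 0.20 ± 0.153 SE, adjusted p = 1.0), with overlapping values throughout. Sncb, beta-synuclein, had 490.5, 593, 552 and 541 CPM in Dp16, 488, 529, 532 and 478 in 5xFAD, 501, 486, 541 and 510.0 in 5xFAD-Dp16 and 669, 466, 530.3 and 518 in wild-type. Its smallest p among the genotype comparisons was in 5xFAD-Dp16 against wild-type (log2 -0.16 ± 0.108 SE, adjusted p = 1.0). All 4 5xFAD-Dp16 values, 486 to 541 CPM, lay within the wild-type range of 466 to 669 CPM. Syn1, a synapsin of most terminals, averaged 975 ± 114 CPM in Dp16, 698 ± 156 in 5xFAD, 839 ± 175 in 5xFAD-Dp16 and 844 ± 247 in wild-type (SD, n = 4 each), with SDs of 114 to 247 CPM. Syp averaged 1702 ± 114 CPM in Dp16, 1478 ± 104 in 5xFAD, 1562 ± 167 in 5xFAD-Dp16 and 1612 ± 196 in wild-type, and Sv2a, which marks vesicles of nearly all terminals, averaged 493 ± 27.7 CPM in Dp16, 438 ± 54.4 in 5xFAD, 461 ± 51.3 in 5xFAD-Dp16 and 456 ± 66.4 in wild-type. Both had fitted changes against wild-type between -0.12 and 0.11 on the log2 scale.

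The vesicular transmitter transporters set glutamatergic against GABAergic terminals. Slc17a7, which loads glutamate in pyramidal and granule cells, had 1531, 1716, 1818 and 1384 CPM in Dp16, 1367, 901, 1379 and 734 in 5xFAD, 1547, 1916, 968 and 1376 in 5xFAD-Dp16 and 1909.5, 1406, 1709.7 and 706 in wild-type. The lowest library of 5xFAD, 5xFAD-Dp16 and wild-type was in each case one of the 4 libraries high in neighbour-tissue markers, and the 4 Dp16 values lay within the range of the remaining wild-type libraries except for replicate 4, at 1384 CPM against 1406 CPM in wild-type replicate 2. Slc32a1, the vesicular GABA transporter VGAT, had 114, 114, 99 and 123 CPM in Dp16, 107, 136, 86.5 and 101 in 5xFAD, 105, 100.1, 135 and 114 in 5xFAD-Dp16 and 124, 98.6, 98.4 and 192 in wild-type. Wild-type replicate 4 was the highest of the 16 for Slc32a1 and the lowest for Slc17a7. The fitted change of Slc32a1 was log2 -0.18 ± 0.169 SE, adjusted p = 0.99 in Dp16 against wild-type and log2 0.24 ± 0.184 SE, adjusted p = 1.0 in 5xFAD-Dp16 against 5xFAD, and the sign of the Dp16 comparison turned without wild-type replicate 4 (log2 0.040).

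Of the 4 calcium sensors, 0 were called in any comparison of genotypes. Syt1, the synaptotagmin that triggers fast release in forebrain, averaged 1655 ± 121 CPM in Dp16, 1243 ± 199 in 5xFAD, 1403 ± 363 in 5xFAD-Dp16 and 1487 ± 442 in wild-type, and Syt7, the sensor of slower and asynchronous release, averaged 354 ± 36.8 CPM in Dp16, 271 ± 51 in 5xFAD, 302 ± 61.3 in 5xFAD-Dp16 and 328 ± 96.6 in wild-type. Syt2, the fast sensor of brainstem, spinal cord and parvalbumin interneurons, had 38.7, 45.1, 33 and 32.2 CPM in Dp16, 31.8, 132, 37.1 and 72.1 in 5xFAD, 36.8, 34, 126 and 27.2 in 5xFAD-Dp16 and 56.2, 45.7, 33.1 and 82.8 in wild-type. The Dp16 libraries were tightly grouped, while 5xFAD replicate 2 and 5xFAD-Dp16 replicate 3 lay far above every other library. The fitted change was log2 -0.51 ± 0.512 SE, adjusted p = 0.99 in Dp16 against wild-type and log2 0.74 ± 0.544 SE, adjusted p = 0.718 in 5xFAD-Dp16 against Dp16, and the sign of the second turned without 5xFAD-Dp16 replicate 3 (log2 -0.037). Syt4, a synaptotagmin of peptidergic and dendritic vesicles that binds no calcium at its first C2 domain, had 154, 171, 167 and 178 CPM in Dp16, 149, 204, 162 and 183 in 5xFAD, 164, 152, 150.4 and 163 in 5xFAD-Dp16 and 184, 158, 169 and 244 in wild-type. Its change in 5xFAD-Dp16 against wild-type was log2 -0.23 ± 0.139 SE, adjusted p = 0.987, with wild-type replicate 4 at 244 CPM and the other wild-type libraries at 158 to 184 CPM.

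In the SNARE group, which holds the fusion proteins, the complexins that clamp them and the factors that take the complex apart, 0 of 8 members were called. Snap25 had 2341, 2570.2, 2594 and 2428 CPM in Dp16, 2300.0, 2307, 2394 and 3225 in 5xFAD, 2324, 2473, 2846 and 2268 in 5xFAD-Dp16 and 2694, 2282, 2421 and 2275 in wild-type. Apart from 5xFAD replicate 4 the libraries kept to 2268 to 2846 CPM, and without that library the 5xFAD change had a negative sign (log2 -0.022). Stx1a, the syntaxin of the plasma membrane, had 94.6, 129, 108 and 139.8 CPM in Dp16, 105, 74.6, 103 and 82.6 in 5xFAD, 112, 107, 93 and 119 in 5xFAD-Dp16 and 144, 99.7, 94.6 and 103 in wild-type. In 5xFAD it lay lower than in wild-type (log2 -0.27 ± 0.157 SE, adjusted p = 0.651) with overlapping values. Vamp2 had 1461, 1568, 1629 and 1428 CPM in Dp16, 1342, 1117, 1330.4 and 979 in 5xFAD, 1371, 1516, 1123 and 1363 in 5xFAD-Dp16 and 1674, 1287, 1488 and 1122 in wild-type. Its smallest p among the genotype comparisons was in 5xFAD-Dp16 against Dp16 (log2 -0.25 ± 0.144 SE, adjusted p = 0.679).

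Vamp1, the vesicle SNARE that prevails in brainstem, spinal cord and thalamus, had 115, 129, 113 and 107 CPM in Dp16, 87, 257, 89.3 and 239 in 5xFAD, 108, 109.6, 343 and 97.5 in 5xFAD-Dp16 and 122, 105, 83.3 and 224 in wild-type. 5xFAD replicates 2 and 4, 5xFAD-Dp16 replicate 3 and wild-type replicate 4 stood far above all other libraries, including all 4 of Dp16. The fitted changes were log2 0.35 ± 0.46 SE, adjusted p = 0.834 in 5xFAD and log2 0.42 ± 0.51 SE, adjusted p = 1.0 in 5xFAD-Dp16 against wild-type. Without 5xFAD-Dp16 replicate 3 the 5xFAD-Dp16 value was log2 -0.22, and without all 4 high libraries the 5xFAD value was -0.21.

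Napb, the neuronal alpha-SNAP homologue that recruits the ATPase to spent SNARE complexes, had the smallest p of all members in Dp16 against wild-type (log2 0.15 ± 0.0769 SE, adjusted p = 0.99). It was at 577, 668, 683 and 639.7 CPM in Dp16 and 625, 546, 591 and 554 CPM in wild-type. Of the 4 Dp16 libraries, 3 lay above all 4 wild-type libraries and replicate 1 lay among them. Nsf, the ATPase itself, had 1278, 1346, 1468 and 1118 CPM in Dp16, 1101, 1039, 1094 and 887 in 5xFAD, 1219, 1395, 957 and 1039 in 5xFAD-Dp16 and 1353, 1165, 1342 and 829 in wild-type. The groups overlapped (log2 0.16 ± 0.15 SE, adjusted p = 0.99 in Dp16 against wild-type). Cplx1, the complexin favoured by inhibitory neurons, averaged 632 ± 52.7 CPM in Dp16, 620.5 ± 113 in 5xFAD, 616 ± 59.7 in 5xFAD-Dp16 and 668 ± 108 in wild-type. Cplx2, favoured by excitatory neurons, averaged 1996 ± 322 CPM in Dp16, 1419 ± 363 in 5xFAD, 1733 ± 404 in 5xFAD-Dp16 and 1784 ± 482 in wild-type. In this order they had fitted changes of -0.078 and 0.17 for Dp16, -0.10 and -0.31 for 5xFAD and -0.14 and -0.12 for 5xFAD-Dp16 against wild-type on the log2 scale.

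Active zone, priming and adhesion genes, 7 in number, had 0 calls. Unc13b, the priming factor Munc13-2, had 31.9, 33.6, 34 and 35.3 CPM in Dp16, 35.3, 28.2, 31.7 and 26.3 in 5xFAD, 32.2, 31.7, 23.8 and 35.2 in 5xFAD-Dp16 and 27.7, 32.3, 32.7 and 21.1 in wild-type. Its 4 Dp16 values, 31.9 to 35.3 CPM, overlapped those of wild-type, 21.1 to 32.7 CPM, at the lower edge (log2 0.25 ± 0.146 SE, adjusted p = 0.99). Unc13a, or Munc13-1, the main priming factor of hippocampal synapses, averaged 292 ± 30.6 CPM in Dp16, 238 ± 49.6 in 5xFAD, 270.4 ± 66.4 in 5xFAD-Dp16 and 256 ± 78.6 in wild-type. Rims2, a scaffold that links Rab3 to Munc13, had 87.1, 90.8, 96.7 and 88.9 CPM in Dp16, 94, 87.7, 90.2 and 85.2 in 5xFAD, 87, 99.2, 71.7 and 77.2 in 5xFAD-Dp16 and 103, 82.4, 91.2 and 90 in wild-type. Its smallest p among the genotype comparisons was in 5xFAD-Dp16 against wild-type (log2 -0.16 ± 0.107 SE, adjusted p = 1.0). Rims1, its close relative, averaged 235 ± 26.4 CPM in Dp16, 216 ± 48.3 in 5xFAD, 229 ± 49 in 5xFAD-Dp16 and 215 ± 57.7 in wild-type, with fitted changes against wild-type of 0.14 for Dp16, 0.031 for 5xFAD and 0.0079 for 5xFAD-Dp16.

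Bsn and Pclo, the giant scaffolds bassoon and piccolo, varied widely between libraries of one genotype. Bsn had 652, 479.6, 643 and 371 CPM in Dp16, 448, 387, 384 and 236 in 5xFAD, 489.7, 665, 249 and 348 in 5xFAD-Dp16 and 654, 433, 638 and 190.4 in wild-type. It ranged over more than 3-fold within wild-type alone, and no group stood clear of another. Pclo averaged 255 ± 50.8 CPM in Dp16, 195 ± 36.3 in 5xFAD, 224 ± 80.4 in 5xFAD-Dp16 and 212 ± 78.8 in wild-type, and Nrxn3, a presynaptic adhesion molecule, averaged 201 ± 23.6 CPM in Dp16, 169 ± 21.4 in 5xFAD, 189 ± 31.8 in 5xFAD-Dp16 and 184 ± 29.8 in wild-type. The exons of Bsn overlap another annotated gene on the same strand, and those of 13 members in all overlap some annotated gene on either strand. How the counting used strand is not stated in what was available, so reads in these overlaps cannot be given to 1 gene with certainty.

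The remaining comparisons named by rule were these. In 5xFAD-Dp16 against 5xFAD, Syn2 (log2 0.20 ± 0.151 SE, adjusted p = 1.0) had a positive sign, and Rims2 (log2 -0.13 ± 0.108 SE, adjusted p = 1.0), Snap25 (log2 -0.13 ± 0.117 SE, adjusted p = 1.0) and Syt4 (log2 -0.12 ± 0.138 SE, adjusted p = 1.0) had negative ones. In 5xFAD-Dp16 against Dp16, Napb (log2 -0.15 ± 0.083 SE, adjusted p = 0.657) had a negative sign, and Vamp1 (log2 0.60 ± 0.491 SE, adjusted p = 0.728) and Slc32a1 (log2 0.17 ± 0.182 SE, adjusted p = 0.778) positive ones. Against wild-type, Unc13b was at log2 0.10 ± 0.156 SE, adjusted p = 1.0 in 5xFAD-Dp16 and Syt4 at log2 -0.17 ± 0.128 SE, adjusted p = 0.99 in Dp16. In 5xFAD against wild-type Snap25 was at log2 0.077 ± 0.109 SE, adjusted p = 0.847. None of these passed.

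The endocytic members were Dnm1, the GTPase that pinches vesicles off, and Amph, its partner amphiphysin. Dnm1 averaged 1784 ± 168 CPM in Dp16, 1369 ± 236 in 5xFAD, 1631 ± 295 in 5xFAD-Dp16 and 1674 ± 450.3 in wild-type, and Amph averaged 271 ± 26.5 CPM in Dp16, 212 ± 28.1 in 5xFAD, 254 ± 43.8 in 5xFAD-Dp16 and 247 ± 50.7 in wild-type. Their fitted changes against wild-type were 0.10 and 0.14 for Dp16, -0.27 and -0.20 for 5xFAD and -0.11 and -0.026 for 5xFAD-Dp16 on the log2 scale, with 0 of 2 called.

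Of 60 further presynaptic genes for vesicles, priming, active zone, endocytosis and GABA synthesis or uptake, all tested, 0 were called by edgeR in each of the 5 comparisons. At an unadjusted p below 0.05 there were 2 for Dp16, 3 for 5xFAD and 2 for 5xFAD-Dp16 against wild-type, 2 in 5xFAD-Dp16 against 5xFAD and 5 in 5xFAD-Dp16 against Dp16, which lay near or below the shares of all genes given for the members. DESeq2 called 1 in Dp16 against wild-type (Synj1) and 1 in 5xFAD-Dp16 against Dp16 (Slc18a3, the vesicular acetylcholine transporter, at most 4.12 CPM in any library), and 0 in the other 3. Of all 16684 genes it called 33 higher and 5 lower in the first and 250 higher and 19 lower in the second. The 1 call of 60 in the second was thus near the share of all genes. The medians of the 60 genes were log2 0.085 for Dp16, -0.15 for 5xFAD and -0.068 for 5xFAD-Dp16 against wild-type, with 47, 10 and 13 of 60 positive. No member of the 32 lies on chromosome 16, but 2 of these 60, Synj1 and Itsn1, lie in the duplicated segment. Both act in endocytosis: Synj1 (GRCm38 chromosome 16, 90936092 to 91011308) encodes synaptojanin 1, the lipid phosphatase that uncoats recovered vesicles, and Itsn1 (chromosome 16, 91729281 to 91920597) encodes intersectin 1, an endocytic scaffold.

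Synj1 had 802, 769, 857 and 675 CPM in Dp16, 428, 428, 462 and 311 in 5xFAD, 751, 854, 527 and 645 in 5xFAD-Dp16 and 545, 434, 544 and 322 in wild-type. All 4 Dp16 libraries lay above all 4 wild-type libraries, and all 4 5xFAD-Dp16 libraries above all 4 5xFAD libraries, while 5xFAD-Dp16 replicate 3 lay within the wild-type range. The fitted change was log2 0.76 ± 0.176 SE, adjusted p = 0.27 in Dp16 against wild-type (1.69-fold), log2 0.52 ± 0.187 SE, adjusted p = 0.435 in 5xFAD-Dp16 against wild-type and log2 0.68 ± 0.194 SE, adjusted p = 0.885 in 5xFAD-Dp16 against 5xFAD. None of these passed over all genes with the default low-count filter and all 16 libraries in edgeR. In Dp16 against wild-type Synj1 passed in 3 of 26 settings, over which adjusted p ran from 9.38e-06 to 1. It passed when low counts were not filtered (adjusted p = 9.38e-06), when the 4 high libraries were left out (adjusted p = 0.00824) and in DESeq2 (adjusted p = 0.0216). In 5xFAD-Dp16 against wild-type it passed in 2 of 26 settings, with no low-count filter (adjusted p = 0.0260) and without the 4 high libraries (adjusted p = 0.0259), over a range of 0.0259 to 0.814. In 5xFAD-Dp16 against 5xFAD it passed in 1 of 26, with no low-count filter (adjusted p = 0.00294), over a range of 0.00294 to 1.0. Synj1 also went downward with the neighbour-tissue score (log2 -0.20 ± 0.0619 SE per unit, adjusted p = 0.0227).

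Itsn1 had 346, 315, 321 and 253 CPM in Dp16, 221, 216, 174 and 144 in 5xFAD, 296, 327, 231 and 239 in 5xFAD-Dp16 and 229, 202, 239 and 159.7 in wild-type. Its change was log2 0.57 ± 0.168 SE, adjusted p = 0.88 in Dp16 against wild-type (1.49-fold) and log2 0.53 ± 0.187 SE, adjusted p = 1.0 in 5xFAD-Dp16 against 5xFAD, and it passed in Dp16 against wild-type in 1 of 26 settings, when low counts were not filtered (adjusted p = 0.00237). In both genes the 8 libraries with the duplication were higher on average than the 8 without it, and in 5xFAD against wild-type both had small negative values (log2 -0.16 and -0.14).

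**Figure D3:**
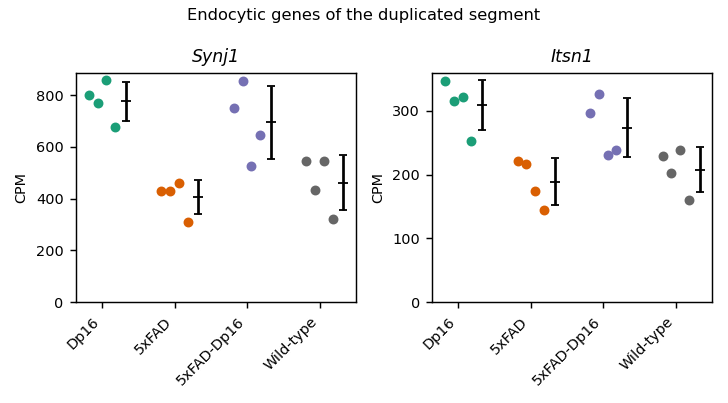
CPM of Synj1 and Itsn1 in each library (coloured points, replicates 1 to 4 from left to right within a genotype), with mean and SD (black bars, n = 4) beside them. The Dp16 and 5xFAD-Dp16 points of Synj1, 527 to 857 CPM, sit above the 5xFAD points, 311 to 462 CPM, and the wild-type points span 322 to 545 CPM.

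Many members moved with the RNA of neighbouring tissue. In a fit with genotype, sex and the neighbour-tissue score, 17 of 32 members passed for the slope on the score, 3 upward and 14 downward, where 28.8% of all tested genes passed. The median slope of the members was log2 -0.16 per unit of score, against 0.017 over all genes, with 8 positive and 24 negative. Of the 60 other presynaptic genes 9 passed upward and 21 downward. The marker lists moved with the score as well: summed excitatory neuron markers held 3262 to 4617 CPM in the 4 libraries and 6283 to 9165 CPM in the other 12, summed dentate gyrus markers 86.8 to 215 CPM and 219 to 434 CPM, and summed oligodendrocyte markers 6746 to 9584 CPM and 4544 to 6314 CPM. Summed pan-neuronal markers did not separate them, at 4825 to 5003 CPM in the 4 and 4483 to 5330 CPM in the other 12. The part of each of these in the slopes was not tested.

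Upward with the score went Vamp1 (log2 0.72 ± 0.0727 SE per unit, adjusted p = 5.5e-05), Syt2 (log2 0.75 ± 0.113 SE per unit, adjusted p = 0.00127) and Slc32a1 (log2 0.18 ± 0.0606 SE per unit, adjusted p = 0.0335). Vamp1 held 224 to 343 CPM in the 4 libraries and 83.3 to 129 CPM in the other 12, and Syt2 held 72.1 to 132 CPM in the 4 libraries and 27.2 to 56.2 CPM in the other 12, so that both were wholly separated. For Slc32a1 the ranges overlapped, at 101 to 192 CPM in the 4 libraries and 86.5 to 124 CPM in the other 12.

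The 6 members with the smallest p for the slope were Vamp1, Syt2 and 4 that went downward. Slc17a7 (log2 -0.40 ± 0.0685 SE per unit, adjusted p = 0.00136) held 706 to 968 CPM in the 4 libraries and 1367 to 1916 CPM in the other 12. Unc13a (log2 -0.32 ± 0.0619 SE per unit, adjusted p = 0.00241) held 142 to 205 CPM in the 4 libraries and 255 to 349 CPM in the other 12. Cplx2 (log2 -0.32 ± 0.0619 SE per unit, adjusted p = 0.00257) held 1069 to 1288 CPM in the 4 libraries and 1554 to 2306 CPM in the other 12, and Syt7 (log2 -0.28 ± 0.0576 SE per unit, adjusted p = 0.0033) held 191 to 235 CPM in the 4 libraries and 288 to 397 CPM in the other 12. In each of these 4 genes the highest of the 4 libraries stayed below the lowest of the other 12. The other members that passed downward were Syt1, Syn1, Rims1, Dnm1, Sv2b, Amph, Unc13b, Vamp2, Syn2 and Nsf, with slopes from -0.29 (Syt1) to -0.16 (Nsf).

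Not all members took part in the fit over all 16 libraries. Rab3a, Napb, Sncb and Cplx1 had slopes between -0.0065 and 0.025, with adjusted p of 0.791 to 0.909, and Snap25 had a slope of 0.092 (adjusted p = 0.0974). Bsn had the steepest negative slope, -0.41 ± 0.146 SE, but with its wide spread it did not pass (adjusted p = 0.0538), nor did Syp (-0.099, adjusted p = 0.0589).

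Set against each other without a model, 2 of 32 members (Vamp1 and Syt2) lay wholly above in the 4 libraries, where 5.8% of all genes did, and 12 of 32 lay wholly below, where 7.37% did. Within genotypes the count could be made in 3 of them, as no Dp16 library was high. Higher in the high libraries of 5xFAD, 5xFAD-Dp16 and wild-type alike were 2 of 32 members, against 12% of all genes, and lower were 15 of 32, against 11.9%. In all, 24 of 32 members had a lower median in the 4 libraries. Summed over the 32 members, the 4 libraries held 15639 to 17729 CPM and the other 12 held 18961 to 24737 CPM.

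**Figure D4:**
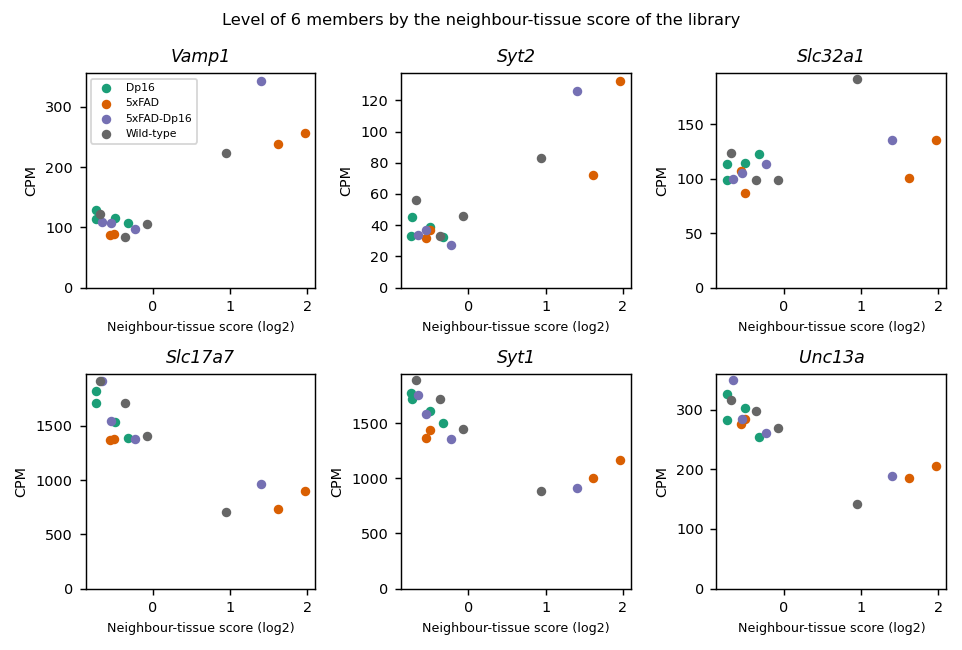
CPM of 6 members (vertical axis, from 0) against the neighbour-tissue score of the library (horizontal axis, log2), with points coloured by genotype. In Vamp1 and Syt2 the 4 libraries with scores of 0.941 or more lie above the other 12, in Slc17a7, Syt1 and Unc13a they lie below them, and in Slc32a1 the ranges overlap.

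The slopes rested in part on those 4 libraries. Without them, over scores of -0.740 to -0.0742, 12 of 32 members passed, 0 upward and 12 downward, where 5.59% of all genes passed. The members that passed downward shared 9 genes between both fits: Amph, Dnm1, Nsf, Rims1, Slc17a7, Syn1, Syn2, Syt1 and Syt7. Cplx1, Nrxn3 and Sv2a passed downward only without the 4 libraries, and Cplx2, Sv2b, Unc13a, Unc13b and Vamp2 only with them. Rims1 then had log2 -0.98 ± 0.155 SE, adjusted p = 0.0087 and Dnm1 had log2 -0.78 ± 0.131 SE, adjusted p = 0.00885. Vamp1 (log2 -0.52 ± 0.25 SE, adjusted p = 0.243) and Syt2 (log2 -0.78 ± 0.452 SE, adjusted p = 0.354) had the opposite sign there and did not pass. The median slope was -0.56 per unit, over a range of less than 1 unit. The lowest scores, -0.740 to -0.661, were those of Dp16 replicates 2 and 3, wild-type replicate 1 and 5xFAD-Dp16 replicate 2. In these libraries summed choroid plexus markers held 69.6 to 201 CPM, and in the rest of this fit 1629 to 6628 CPM. The part of choroid plexus RNA in these slopes was not tested.

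In 2 families members passed in opposite directions with the score, Vamp1 upward and Vamp2 downward, and Syt2 upward and Syt1 downward. The balance of related genes is given here as the share of 1 gene in the summed RPKM of a pair. The share of Vamp1 in Vamp1 and Vamp2 was 12.1% to 17.4% in the 4 high libraries and 3.72% to 5.37% in the other 12. The share of Syt2 in Syt2 and Syt1 was 4.58% to 8.38% in the 4 and 1.22% to 2.05% in the other 12. For Slc32a1 in Slc32a1 and Slc17a7, transporters of different families that also passed in opposite directions, the shares were 12.8% to 22.5% and 5.29% to 8.66%. None of these 3 pairs overlapped between the 4 libraries and the rest. As they were picked from genes that passed in opposite directions with the same score, this is a description, not a test. The share of Sv2c in Sv2c and Sv2a overlapped, at 3.82% to 7.55% and 2.94% to 4.86%. Neither Sv2c nor Sv2a passed over all 16 libraries, while Sv2a passed downward without the 4.

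Among the paralogues with smaller changes, Cplx1 made up 52.0% to 59.7% of Cplx1 and Cplx2 in the 4 libraries and 39.2% to 47.0% in the other 12. The share of Syn2 in Syn2 and Syn1 was 36.3% to 42.2% and 33.4% to 36.8%, which overlapped slightly. Rims2 in Rims2 and Rims1 overlapped too, at 26.3% to 34.5% and 23.0% to 27.7%. So did Unc13b in Unc13b and Unc13a, at 6.92% to 8.04% and 4.89% to 7.53%. By genotype the Vamp1 share averaged 5.00 ± 0.336% in Dp16, 9.20 ± 5.61% in 5xFAD, 8.0 ± 6.27% in 5xFAD-Dp16 and 6.48 ± 3.79% in wild-type (SD, n = 4 each), where the small SD of Dp16 went with its lack of a high library.

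**Figure D5:**
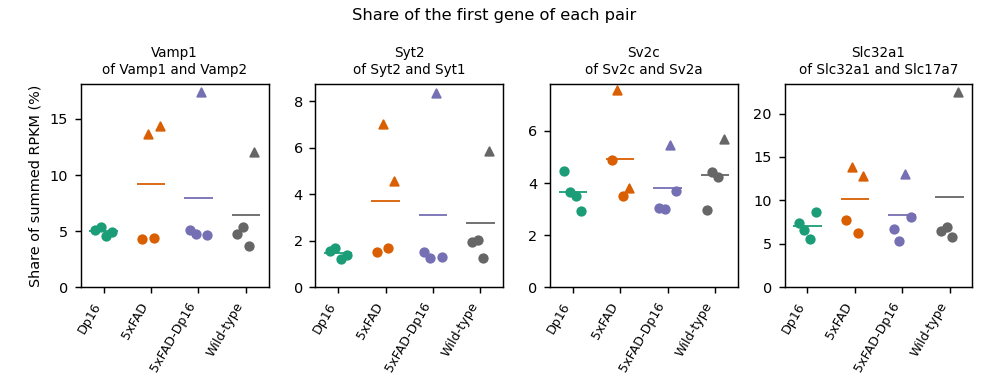
Share of the first gene of each pair in the summed RPKM of the pair (percent, vertical axes from 0) by genotype, with triangles for the 4 libraries high in neighbour-tissue markers, circles for the other 12 and horizontal lines for the group means. The triangles of the Vamp1, Syt2 and Slc32a1 pairs, at 12.1% or more, 4.58% or more and 12.8% or more, lie above every circle.

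Whether the duplication acted differently with the transgenes than without them was tested as an interaction, the Dp16 effect with 5xFAD minus that without it. Of the 32 members 0 were called, and 0% of all genes were, with 0 members at an unadjusted p below 0.05 (1.99% of all genes). DESeq2 called 0 members and 0 of all genes. The member median was -0.061, with 13 positive and 19 negative, and 15 of 32 intervals lay within 1.5-fold. The sex term in the 5xFAD-Dp16 comparisons and in the interaction came from the other 3 genotypes, since the cross was male throughout.

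Between females and males, 0 of 32 members were called, against 0.048% of all genes. DESeq2 called 0 members as well, where it called 16 of all 16684 genes higher and 5 lower. The median was log2 -0.14 with 6 of 32 positive, against -0.0021 over all genes. At an unadjusted p below 0.05 there were 3 of 32 members, against 5.84% of all genes, named after their values were seen: Slc32a1 (log2 0.31 ± 0.138 SE, adjusted p = 0.844), Snap25 (log2 -0.19 ± 0.0888 SE, adjusted p = 0.853) and Napb (log2 -0.14 ± 0.0628 SE, adjusted p = 0.844). Of the 4 libraries high in neighbour-tissue markers 2 were female (5xFAD replicate 2 and wild-type replicate 4) and 2 male, among 6 female and 10 male libraries. With the score as a covariate the median was -0.061. Without the 4 libraries it was -0.14, with 4 of 32 positive and 5 members at an unadjusted p below 0.05 in edgeR. The part of neighbouring tissue in the difference between the sexes was not tested.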

How the data were processed

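Per the labels' protocols, TRIzol was used for extraction, and polyadenylated RNA went into strand-specific libraries. Per the submitters' processing notes the tools were bcl2fastq, FastQC 0.11.5, HISAT2 2.1.0, SAMtools 1.5 and HTSeq 0.6.1, with build GRCm38. The authors deposited raw read counts per gene and a table of RPKM values, which equalled rescaled counts in 17872 of 17872 genes checked (relative tolerance 1e-06). For the counting step, the strand option is not stated in the sources used here.

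The deposited counts were fitted in edgeR 4.0.16 (R 4.3.3) with TMM scaling, its default low-count filter by group (16684 of 55385 genes) and a robust quasi-likelihood model with terms for genotype and sex over all 16 libraries. Adjusted p is Benjamini-Hochberg over all tested genes, with a threshold of 0.05, and intervals are at 95%. The slope model added the neighbour-tissue score (log2 CPM, prior count 2). DESeq2 1.42.0 was an alternative. The others were RLE scaling, no low-count filter, no sex term, males only, the 2 groups alone, the score as covariate, no high libraries, a replicate block and leaving out each library. The steps were tested on simulated data.

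The members, marker lists and 60 other presynaptic genes were chosen with earlier results of these data known. The members named per comparison were the 3 with the smallest p on each side of 0 (6 in all for the slope), with Synj1 and Itsn1 in each genotype comparison. Coordinates and exon overlaps came from a GRCm38 annotation and promoters from RefSeq. Libraries of one genotype differed by more than counting noise (9.51 to 120 chi-square per gene).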

Additional observations from a re-analysis of the deposited data

Results flagged for a closer look

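In 128 groups of 4 libraries (32 members in 4 genotypes), 5 held a library whose gap to its nearest neighbour exceeded Dixon's 95% critical share of the group's whole range, and chance alone gives such a gap in about 1 group in 20. Of the 5, 3 were in 5xFAD-Dp16 replicate 3, a library high in neighbour-tissue markers: Vamp1 at 343 CPM against 97.5 to 109.6 CPM in the other 5xFAD-Dp16 libraries, Syt2 at 126 CPM against 27.2 to 36.8 CPM, and Sv2c at 50.4 CPM against 32.3 to 34.9 CPM. Snap25 was at 3225 CPM in 5xFAD replicate 4, also one of the 4 high libraries, against 2300.0 to 2394 CPM in the other 5xFAD libraries. Napb was at 643 CPM in 5xFAD-Dp16 replicate 2, which was not among the 4, against 591 to 596 CPM in the other 5xFAD-Dp16 libraries.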

How the results depend on the processing

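The count of members called stayed at 0 in the 5 genotype comparisons under every alternative run except with no low-count filter. That setting called 1 in Dp16 against wild-type (Syt2) and 2 in 5xFAD-Dp16 against Dp16 (Syt2 and Vamp1), where 0.68% and 2.01% of the 30883 genes were called. Outside the genotype comparisons it called 1 in female against male (Sv2c), where 1.31% of genes were called. In males only the member median was -0.40 in 5xFAD against wild-type, 0.22 in 5xFAD-Dp16 against 5xFAD and 0.23 in the interaction. When single libraries were left out the interaction median ran from -0.18 (without 5xFAD replicate 4) to 0.094 (without wild-type replicate 4). Without the 4 high libraries the slope median was -0.56, with slopes of -0.52 for Vamp1 and -0.78 for Syt2. The number of members passing for the slope ran from 14 to 23 over the libraries left out.

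Signs that turned were as follows, all log2. In 5xFAD-Dp16 against Dp16, Syt2 was at -0.18 with the score as covariate, -0.23 without the 4 libraries and -0.037 to 0.98 over libraries left out, Vamp1 at -0.21, -0.16 and -0.048 to 0.78, and Slc32a1 at -0.027 without the 4. In 5xFAD against wild-type, Vamp1 was at -0.27 with the covariate and -0.21 without the 4, Snap25 at -0.038 without the 4 and -0.022 to 0.14 over libraries left out, and Sv2c at -0.27 in males only and -0.15 to 0.33 over libraries left out. There Synj1 ran from -0.30 to 0.0017 and Itsn1 from -0.27 to 0.0060 over libraries left out, and in males only they were at -0.51 and -0.57. In Dp16 against wild-type Slc32a1 was at 0.054 without the 4 and ran from -0.31 to 0.040. In 5xFAD-Dp16 against wild-type Vamp1 ran from -0.22 to 0.67 and Syn3 was at -0.010 in males only. In 5xFAD-Dp16 against 5xFAD Snap25 ran from -0.21 to 0.0033. The cause was not tested.

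The replicate numbers did not pair the libraries: 9 of 24 same-numbered pairs had a correlation over 0.1, and 3 of 16 libraries correlated best with their own number. With the replicate block, 0 members were called in the genotype comparisons, the medians were 0.13, -0.12 and -0.089 in Dp16, 5xFAD and 5xFAD-Dp16 against wild-type, and 2 members passed upward and 13 downward for the slope, where 13.7% of all genes passed. With 4 libraries a group, intervals of Vamp1, Syt2 and Bsn stayed wide.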
